A study of Mus musculus with 6 samples.

Results

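The platelet-derived growth factor (PDGF) system comprised 6 genes in these data, the ligand genes *Pdgfa*, *Pdgfb*, *Pdgfc* and *Pdgfd* and the receptor genes *Pdgfra* and *Pdgfrb*, picked by symbol from the 25403 genes listed. All 6 passed the filter on low counts and were among the 14496 genes tested. RNA came from frozen whole livers of 3 mice labelled WT (wild-type C57BL6/J) and 3 labelled *Themis*-KO, a whole-body knockout of *Themis*, a signalling protein of T cells that was here studied in hepatocytes. Every mouse began at 10 to 12 weeks of age a diet that induces metabolic dysfunction–associated steatohepatitis (MASH) and ate it for 3 months. Fat supplied 40% and fructose 20% of its energy, and it held 2% cholesterol. The labels name no strain for the knockout, and no chow-fed livers are among these 6, so the comparison is between genotypes on 1 diet. The question was how the PDGF genes differed between the genotypes and whether ligands and receptors did so alike.

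PDGF ligands are secreted dimers that bind and pair receptor tyrosine kinases on mesenchymal cells. The A and B chains are trimmed inside the cell by furin-type proteases, whereas the C and D chains leave the cell in a latent form. Proteases outside the cell activate them, among these tissue plasminogen activator for the C chain. The α receptor binds A, B and C chains, and the β receptor binds B and D chains. In liver both receptors are found on hepatic stellate cells, the vitamin A-storing pericytes that become collagen-producing myofibroblasts in injury, and the B-chain dimer is known as a potent mitogen of these cells. Sources of B chain include platelets, endothelium and macrophages.

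The 6 libraries held between 20679642 and 25649767 counts. *Themis* itself did not separate the labels: it stood at 8.07, 25.6 and 12.0 CPM (TMM-normalized counts per 1000000) in the livers labelled WT and at 8.63, 7.74 and 9.97 CPM in those labelled *Themis*-KO, so groups are named here by their labels. The fitted log2 fold change of −0.79 (SE 0.38) had a Benjamini-Hochberg adjusted p of 0.199 in edgeR's quasi-likelihood test. WT replicates 1 and 2 also stood apart from the other 4 livers by a pair of near-identical mitochondrial features. *Gm28438* took 96.6% and 96.8% of their joint counts with *mt-Nd3* in those 2 livers and between 2.20% and 3.26% elsewhere. The tissue label held in all 6 livers, with the hepatocyte markers summing to 65225 to 72220 CPM in WT-labelled and 51350 to 54559 CPM in *Themis*-KO-labelled livers.

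All 6 PDGF genes had a higher mean in the livers labelled *Themis*-KO, and 2 of the 6, the ligand *Pdgfb* and the receptor *Pdgfrb*, passed the test at an adjusted p of 0.05. Over all genes tested, 9.11% passed in either direction and 4.97% passed as higher. The median log2 fold change of the 6 was 0.71, against 0.0095 over all genes tested. The groups did not overlap for 4 of the 6 genes, as for 17.7% of all genes tested in that direction. Of the 6, 5 were higher with an adjusted p under 0.1, as were 11.5% of all genes tested. In bulk liver, more cells of a type and more RNA per cell cannot be told apart.

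*Pdgfb*, which encodes the B chain, had the largest fold change of the 6. It was measured at 2.75, 2.11 and 2.29 CPM in the livers labelled WT and at 7.39, 5.63 and 3.83 CPM in those labelled *Themis*-KO. Every *Themis*-KO-labelled liver lay above every WT-labelled liver, and replicate 1 of the former was the highest and replicate 3 the lowest of its group. The means were 2.38 ± 0.331 and 5.62 ± 1.78 CPM (SD, n = 3 each), a log2 fold change of 1.24 (SE 0.26, 95% interval 0.63 to 1.84, edgeR adjusted p = 0.0350). *Pdgfb* was the only member called at a rise of at least 2-fold, a call that 1.86% of all genes tested received. Its counts ran from 44 to 174 per library, so that counting alone gave a coefficient of variation of 15.1% at the lowest. The gene lies on the minus strand of chromosome 15, at 79995874 to 80014977 (GRCm38), and its exons span 4161 bp in all.

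*Pdgfa*, the gene of the A chain, was the most abundant ligand. It stood at 11.1, 13.8 and 13.3 CPM in the livers labelled WT and at 19.5, 17.0 and 16.1 CPM in those labelled *Themis*-KO. The groups did not overlap, and their spreads were close, 12.7 ± 1.46 and 17.5 ± 1.78 CPM (SD, n = 3 each). The log2 fold change of 0.46 (SE 0.13, 95% interval 0.17 to 0.76) had an adjusted p of 0.0602 and did not pass. *Pdgfa* lies on the minus strand of chromosome 5 (138976014 to 138997370). An antisense gene, 6330403L08Rik, overlaps its start and held 83 to 201 counts, against 241 to 459 for *Pdgfa*, and whether reads were assigned by strand is not given in the sources used here.

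**Figure D1:**
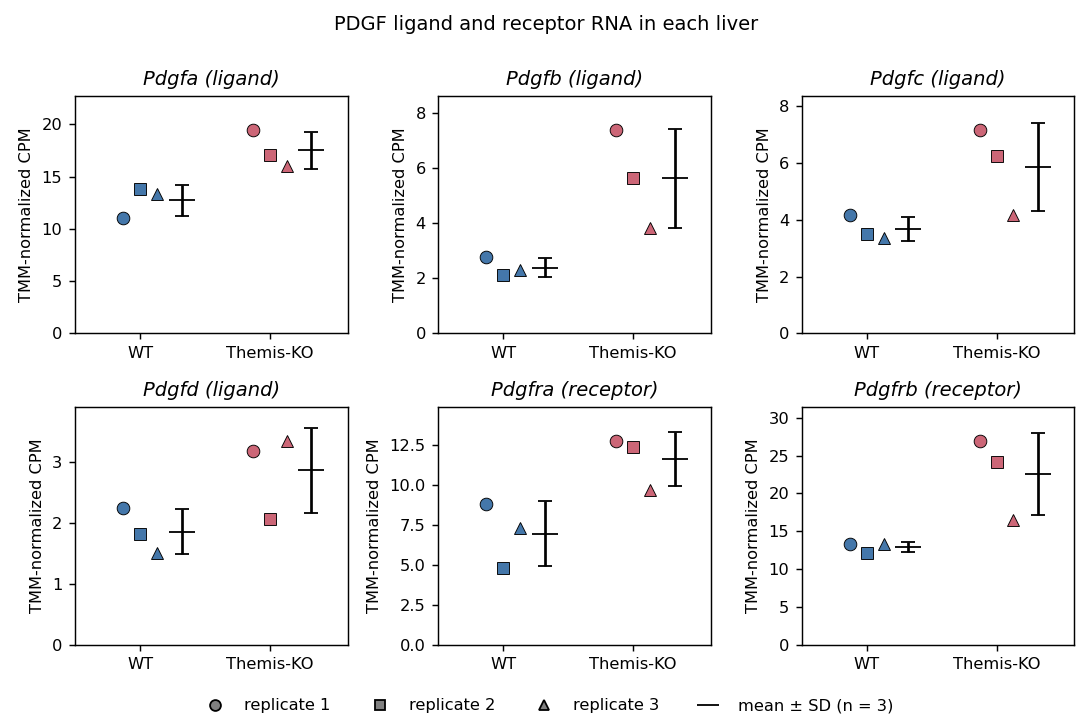
TMM-normalized CPM of the 4 ligand and 2 receptor genes (vertical axes from 0, scaled per gene) in each liver, with circles, squares and triangles for replicates 1, 2 and 3 and a bar for the mean ± SD of the 3 livers of a label. Livers labelled *Themis*-KO all lie above those labelled WT for *Pdgfa*, *Pdgfb*, *Pdgfra* and *Pdgfrb*, whereas *Pdgfc* and *Pdgfd* overlap.

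*Pdgfc* and *Pdgfd* encode the 2 latent ligands with a CUB domain. *Pdgfc* was at 4.17, 3.50 and 3.35 CPM in the livers labelled WT and at 7.18, 6.24 and 4.16 CPM in those labelled *Themis*-KO. Replicates 1 and 2 of the latter lay above every WT-labelled liver, and replicate 3 lay just below the highest of them. The log2 fold change was 0.67 (SE 0.23, 95% interval 0.15 to 1.20, edgeR adjusted p = 0.0925). *Pdgfd*, the least abundant member by CPM, was at 2.25, 1.82 and 1.50 CPM and at 3.19, 2.06 and 3.35 CPM. Here replicate 2 of the livers labelled *Themis*-KO fell within the WT-labelled range, and replicate 3 was the highest of all. Its log2 fold change was 0.63 (SE 0.26, 95% interval 0.024 to 1.23, edgeR adjusted p = 0.151), on 38 to 75 counts per library.

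These 2 ligands also differed in how they followed the rest across the 6 livers. The Pearson r of log2 CPM of *Pdgfc* was 0.970 with *Pdgfb*, 0.966 with *Pdgfrb*, 0.853 with *Pdgfra* and 0.760 with *Pdgfa*. *Pdgfd*, on the lowest counts (38 to 75 per library), had an r of 0.54 to 0.67 with each other member. Such an r was not particular to *Pdgfd*, since *Pdgfa* and *Pdgfra* had 0.603. These r are a description over 6 livers that share their libraries and the genotype difference. The bases just before both genes are shown because these 2 CUB-domain ligands differed in this pattern (RefSeq, GRCm38.p6, plus strand, 5′ to 3′). For *Pdgfd* only the bases before its outermost annotated start are given. Capitals mark matches to the motifs searched.
Pdgfc, chr3:81036166-81036415: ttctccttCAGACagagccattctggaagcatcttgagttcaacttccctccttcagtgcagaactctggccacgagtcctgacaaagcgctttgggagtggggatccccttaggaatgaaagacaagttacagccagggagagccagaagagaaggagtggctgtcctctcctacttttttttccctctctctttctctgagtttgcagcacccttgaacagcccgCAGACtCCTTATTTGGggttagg
Pdgfd, chr9:6168236-6168362: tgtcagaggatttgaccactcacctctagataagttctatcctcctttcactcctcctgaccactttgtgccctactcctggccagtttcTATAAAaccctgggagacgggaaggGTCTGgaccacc
The motifs searched on both strands were the TATA box as TATAAA, the GC box as GGGCGG, the AP-1 site as TGACTCA, the SMAD box as CAGAC, the ETS core as CCGGAA and, by name, the CArG box of serum response factor. In the 250 bases before *Pdgfc*, with 50.8% G and C, CAGAC begins at positions -242 and -23 and a CArG box at -17, counting the last base before the gene as -1. In the 127 bases before *Pdgfd*, TATAAA begins at -37 and GTCTG, the reverse complement of CAGAC, at -12. No motifs overlap in either stretch. Among 32851 windows of 250 bases before mouse genes, 1.47% hold a CArG box, 12.4% TATAAA and 42.2% CAGAC. These windows are longer than the 127 bases shown for *Pdgfd*, so their shares do not match that stretch in length. A match is a description of the letters and was not tested for binding.

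Levels can be compared between the members only per length. Per kilobase of exon, the livers labelled WT had 4.08 ± 0.468 CPM of *Pdgfa* and 2.36 ± 0.127 CPM of *Pdgfrb*, with no overlap between these genes or with the next (SD, n = 3). *Pdgfc* (0.723), *Pdgfra* (0.695), *Pdgfd* (0.589) and *Pdgfb* (0.573 CPM per kb) followed, and each overlapped its neighbour in this order. In the livers labelled *Themis*-KO *Pdgfa* (5.62) and *Pdgfrb* (4.11) again led without overlap, and *Pdgfb* at 1.35 ± 0.429 CPM per kb took the third place by mean, although it overlapped *Pdgfra* (1.16), next in order.

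The 4 ligands summed to 5.74, 6.19 and 5.96 CPM per kb in the livers labelled WT and to 10.5, 8.69 and 7.95 CPM per kb in those labelled *Themis*-KO. *Pdgfb* made up 11.5%, 8.20% and 9.23% of this ligand RNA in the former and 17.0%, 15.6% and 11.6% in the latter. The 3 shares of the livers labelled *Themis*-KO all lay above those labelled WT, with replicate 3 only just so. The difference of 5.06 percentage points had an exact two-sided permutation p of 0.1, the smallest that 3 livers against 3 allow, and a Benjamini-Hochberg value of 0.354 over the 23 ratios and shares tested. The share of *Pdgfa* was 68.3% and 62.5% by mean (p = 0.3, exact permutation). *Pdgfc* (12.2% and 12.6%) and *Pdgfd* (9.91% and 10.2%) also overlapped between labels.

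**Figure D2:**
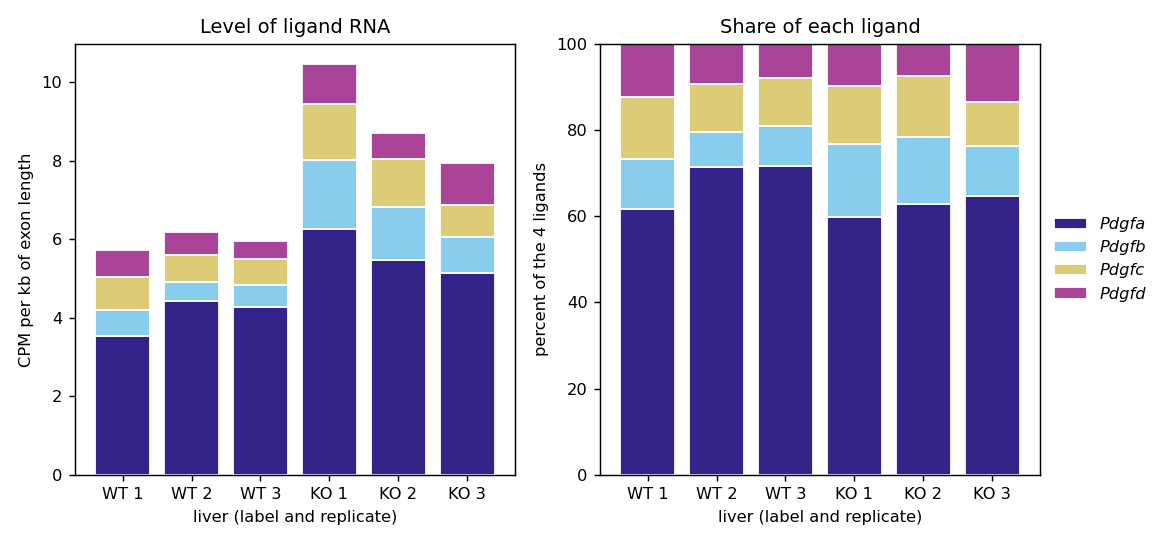
Stacked bars of the 4 ligand genes in each liver, as CPM per kilobase of exon length (left, from 0) and as a percent of their sum (right, 0 to 100). Bars KO 1, KO 2 and KO 3 are the livers labelled *Themis*-KO, whose summed level runs from 7.95 to 10.5 against 5.74 to 6.19 in the livers labelled WT, and *Pdgfa* is the largest segment in all 6.

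*Pdgfra* encodes the α receptor, which also marks fibroblasts in many tissues. It was measured at 8.81, 4.80 and 7.30 CPM in the livers labelled WT and at 12.8, 12.4 and 9.68 CPM in those labelled *Themis*-KO. The groups did not overlap, and WT replicate 2 was well below the other 5 livers. The means were 6.97 ± 2.02 and 11.6 ± 1.70 CPM, and the log2 fold change of 0.74 (SE 0.23, 95% interval 0.22 to 1.26) had an edgeR adjusted p of 0.0761. *Pdgfra* lies on the plus strand of chromosome 5 (75152292 to 75198215), and *Kit*, the related stem cell factor receptor, begins 376701 bp beyond it.

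*Pdgfrb* encodes the β receptor, the one that both the B and the D chain engage. It was measured at 13.3, 12.1 and 13.4 CPM in the livers labelled WT and at 27.0, 24.1 and 16.5 CPM in those labelled *Themis*-KO. The WT-labelled livers were nearly level, and the *Themis*-KO-labelled livers lay above them and were spread more widely, again with replicate 1 highest and replicate 3 lowest. The means were 12.9 ± 0.693 and 22.5 ± 5.43 CPM (SD, n = 3 each). The log2 fold change was 0.80 (SE 0.18, 95% interval 0.39 to 1.21, edgeR adjusted p = 0.0386). *Pdgfrb* lies on the plus strand of chromosome 18 (61045150 to 61085061), and *Csf1r*, the receptor of macrophage colony-stimulating factor, begins 15537 bp beyond it.

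No difference in change between the receptors was detected. The log2 ratio of *Pdgfra* to *Pdgfrb* was −0.59, −1.34 and −0.87 in the livers labelled WT and −1.08, −0.96 and −0.77 in those labelled *Themis*-KO. The means were −0.94 and −0.93 (exact two-sided permutation p = 1), and the difference of 0.0021 moved between −0.20 and 0.17 when 1 liver was left out. Within a label the ratio had an SD of 0.38 (WT) and 0.16 (*Themis*-KO), and the test cannot go below 0.1, so an unequal change could not be called with 3 livers a label.

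**Figure D3:**
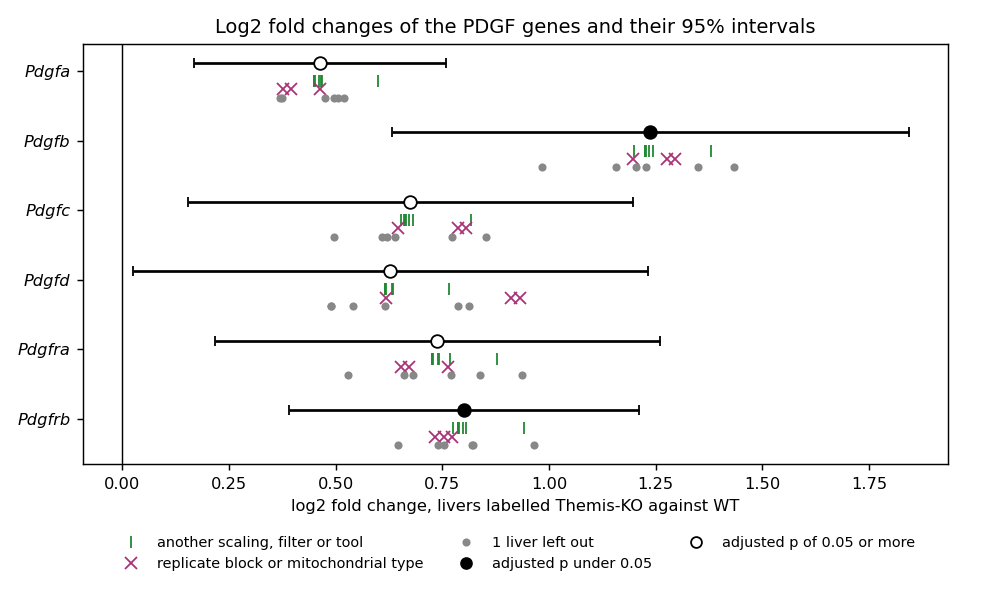
Log2 fold change of each member between livers labelled *Themis*-KO and WT (circles, filled where the adjusted p is under 0.05, with 95% intervals), above its values under other scalings, filters and tools (green bars), with the replicate block or the mitochondrial type accounted for (crosses) and with each liver left out (grey points). All values lie above 0, and *Pdgfb* has the largest in the fit of all 6 livers, at 1.24.

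The direction was the same for all 6 members in each of 16 alternative fits, while the calls depended on single livers. Without replicate 3 of the livers labelled *Themis*-KO, 5 members passed in edgeR (all but *Pdgfd*), as did 15% of all genes in the upward direction. Without replicate 1 or 2 of that label no member passed, with 0.0543% and 0.183% of all genes called higher. Without WT replicate 1, 2 or 3 no member passed either, and 0.0809%, 0.128% and 3.24% of all genes were called higher. In these 5 fits 4 to 6 members had an unadjusted p under 0.05, as 19.9% to 28% of all genes did. Over the 6 fits with 1 liver left out the log2 fold change of *Pdgfb* ran from 0.98 to 1.43 and its edgeR adjusted p from 0.00361 to 0.121, and those of *Pdgfrb* from 0.65 to 0.97 and from 0.00188 to 0.136. DESeq2 called *Pdgfa*, *Pdgfb*, *Pdgfra* and *Pdgfrb* higher, as it did 8.02% of its genes. Scaling by total counts alone called the same 4, beside 10% of genes called higher. That scaling shifted the median of all genes to 0.15 and that of the members to 0.85. Without a filter on low counts *Pdgfra* was added to the 2 calls, beside 4.77% of genes called higher.

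The split of the livers by mitochondrial type lies within the WT label, and all 3 livers labelled *Themis*-KO had the *mt-Nd3* type. With that type as a covariate, *Pdgfb* had a log2 fold change of 1.30 and *Pdgfrb* of 0.75, but no member passed and 0% of all genes were called higher in edgeR, with 3 members at an unadjusted p under 0.05, as 10.5% of all genes were. With both *Gm28438*-type livers left out, the same genes had 1.28 and 0.73, again with 0% of all genes called higher and with 2 members at an unadjusted p under 0.05, as 8.18% of all genes were. In the latter fit WT replicate 3 was the only liver of its label and was assumed to vary like the others.

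The genes around the PDGF receptors were described by 5 lists with 57 genes, all of which were tested. Of these, 7 (12.3%) were called higher and none lower in edgeR, against 4.97% higher and 9.11% in either direction over all genes, and their median log2 fold change was 0.27, against 0.0095. Among the 7 proteases that can process PDGF chains, *Plat*, which encodes tissue plasminogen activator and can activate the C chain, went from 1.74, 0.912 and 2.84 CPM to 8.33, 6.92 and 3.68 CPM. The groups did not overlap, and the log2 fold change of 1.77 (SE 0.42) had an adjusted p of 0.0432. *St14*, which encodes matriptase, a protease that can cleave the D chain, also rose, with a log2 fold change of 1.21 (SE 0.25) and an adjusted p of 0.0337. *Furin*, the most abundant of the 7, had a log2 fold change of −0.10 (adjusted p = 0.464), and the median of the list was 0.14.

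Of 4 co-receptors and binding proteins, *Sparc*, whose matrix protein can bind the B chain, rose from 71.9 to 115 CPM by mean (log2 fold change 0.67, SE 0.081, adjusted p = 0.0112). *Lrp1*, an endocytic receptor that binds the β receptor and the most abundant of the 4, was at 632 and 486 CPM (log2 fold change −0.38, adjusted p = 0.116). Of 33 adaptors and effectors that act beneath the receptors, 3 were called higher (9.09%, against 9.11% of all genes in either direction) and 11 had an unadjusted p under 0.05, as 30.7% of all genes did. The 3 were *Src*, a kinase recruited by the activated receptors (log2 fold change 1.23, SE 0.25, adjusted p = 0.0314), the adaptor *Nck2* (0.96, SE 0.16, adjusted p = 0.0217) and the ERK kinase gene *Mapk3* (0.40, SE 0.096, adjusted p = 0.0426). *Src* stood at 4.27, 3.70 and 3.99 CPM in the livers labelled WT and at 12.2, 9.81 and 6.14 CPM in those labelled *Themis*-KO. Its livers thus fell in the same order within the *Themis*-KO label as those of *Pdgfb*. *Stat3*, the most abundant of the 33, overlapped (0.37, adjusted p = 0.551). Of 5 phosphatases and ubiquitin ligases that end receptor signalling, *Cblb* rose (0.79, SE 0.18, adjusted p = 0.0407).

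Of 8 genes known to be induced by PDGF in cultured fibroblasts, none was called in edgeR, although their median log2 fold change was 1.14. Of these, 3 had an unadjusted p under 0.05 (30.7% of all genes did), DESeq2 called 3 and limma-voom called none. *Junb*, the most abundant, was at 32.2, 26.3 and 40.1 CPM in the livers labelled WT and at 79.5, 59.0 and 27.2 CPM in those labelled *Themis*-KO (log2 fold change 0.75, adjusted p = 0.186). Replicate 3 of the latter lay within the WT-labelled range. These genes respond to many other signals too. With 1 liver left out the calls among the 57 genes ran from 0 to 27, the most without replicate 3 of the livers labelled *Themis*-KO.

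**Figure D4:**
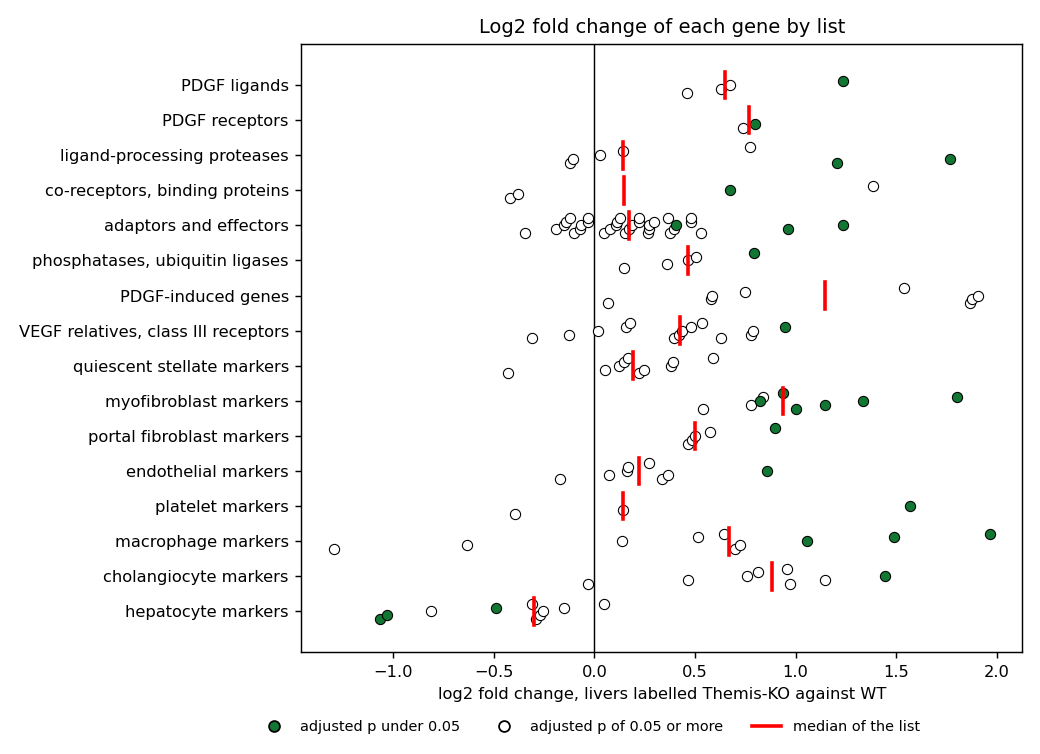
Log2 fold change between livers labelled *Themis*-KO and WT (horizontal axis) of each tested gene, with a row for each list, a red line at the list's median and filled points where the adjusted p is under 0.05. The PDGF ligands and receptors lie at 0.46 to 1.24, the 8 PDGF-induced genes have the highest median (1.14) without a call, and the hepatocyte markers have a median of −0.30. The vascular smooth muscle, T cell and B cell markers are not drawn.

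Of the cells that carry PDGF receptors, myofibroblasts had the most markers called. The 9 myofibroblast markers summed to 166 to 193 CPM in the livers labelled WT and to 295 to 382 CPM in those labelled *Themis*-KO. Of these 9, 6 (66.7%) were called higher, against 4.97% of all genes tested. The largest were *Timp1* (log2 fold change 1.80), *Lox* (1.34), *Col1a1* (1.15) and *Col1a2* (1.00). The 10 quiescent stellate cell markers summed to 292 to 308 and 328 to 387 CPM, with none called in edgeR or limma-voom and 1 in DESeq2. Of the 10, 2 had an unadjusted p under 0.05 in edgeR, where 30.7% of all genes did. *Ecm1*, the most abundant of them, had a log2 fold change of 0.14. The 5 tested of 8 portal fibroblast markers included 1 call, *Eln* (0.90), and 2 of 5 vascular smooth muscle markers were tested with no call in edgeR, DESeq2 or limma-voom and none at an unadjusted p under 0.05.

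Of the cells that make B chain, 3 of 10 macrophage markers were called higher (*Gpnmb* 1.97, *Trem2* 1.49 and *Cd68* 1.06), beside 4.97% of all genes tested. Of the 10, 8 had a log2 fold change above 0, whereas *Marco* (−1.29) and *Timd4* (−0.63) lay below it without a call. *Clec4f* (0.14) and *Adgre1* (0.52) were not called either. The list summed to 334 to 576 and 571 to 726 CPM. Of 8 endothelial markers 1 (12.5%), *Lyve1*, was called higher (0.86), and the list summed to 179 to 195 and 215 to 221 CPM. Of 6 platelet and megakaryocyte markers 3 were tested and *Pf4* was called (1.57, on 9 to 35 counts). *Itga2b* (0.14) and *Gp1ba* (−0.39) were not, and the list had no call among genes with at least 10 counts in every liver. The 6 summed to 4.13 to 4.37 and 5.53 to 5.74 CPM. *Spp1* alone was called of 8 cholangiocyte markers (1.44), and it made up most of the list's sum of 169 to 208 and 400 to 632 CPM. The other 7 summed to 28.3 to 32.5 and 32.9 to 61.2 CPM. Hepatocyte markers moved the other way, with 3 of 10 called lower (*Cyp2e1* −1.07, *Serpina1c* −1.03 and *Ass1* −0.49). Over all genes tested, 9.11% were called in either direction. Of 7 T cell markers 5 were tested, with a median log2 fold change of 0.0055. *Cd4* was called lower (−1.46, on 12 to 46 counts), whereas 3 of the 5 were above 0, *Cd8a* the highest at 1.38, without a call. None of 5 B cell markers was called in any of the 3 tools or had an unadjusted p under 0.05. No marker was at 0 in all 6 livers. The part of cell composition in the PDGF values was not tested.

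Members were therefore also set against the markers within each liver, as log2 CPM minus the mean log2 CPM of a marker list. Against the quiescent stellate markers *Pdgfb* stood at −2.56, −2.97 and −2.91 in the livers labelled WT and at −1.37, −1.72 and −2.42 in those labelled *Themis*-KO. It was higher in all 3 of the latter, by 0.98 on the log2 scale (exact two-sided permutation p = 0.1, Benjamini-Hochberg 0.354 over the 23). *Pdgfrb* was 0.58 higher against the same markers (p = 0.2, exact), and replicate 3 of the livers labelled *Themis*-KO lay within the WT-labelled range. The other members were 0.27 to 0.58 higher and overlapped.

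Against the myofibroblast markers the picture differed by member. *Pdgfrb* was at 0.73, 0.76 and 0.57 in the livers labelled WT and at 0.52, 0.48 and 0.41 in those labelled *Themis*-KO, lower in every liver of the latter by a mean of 0.22 (difference −0.22, p = 0.1, exact permutation). *Pdgfa* was lower as well (−0.52, p = 0.1, exact), again without overlap. *Pdgfb* was the only member with a positive difference (0.18, p = 0.4, exact), and it overlapped. Against the endothelial markers *Pdgfb* (0.91) and *Pdgfrb* (0.51) were higher without overlap (p = 0.1 each, exact). None of these differences passed after adjustment over the 23, which 3 livers against 3 could not reach, and the marker genes themselves change with activation of the cells.

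**Figure D5:**
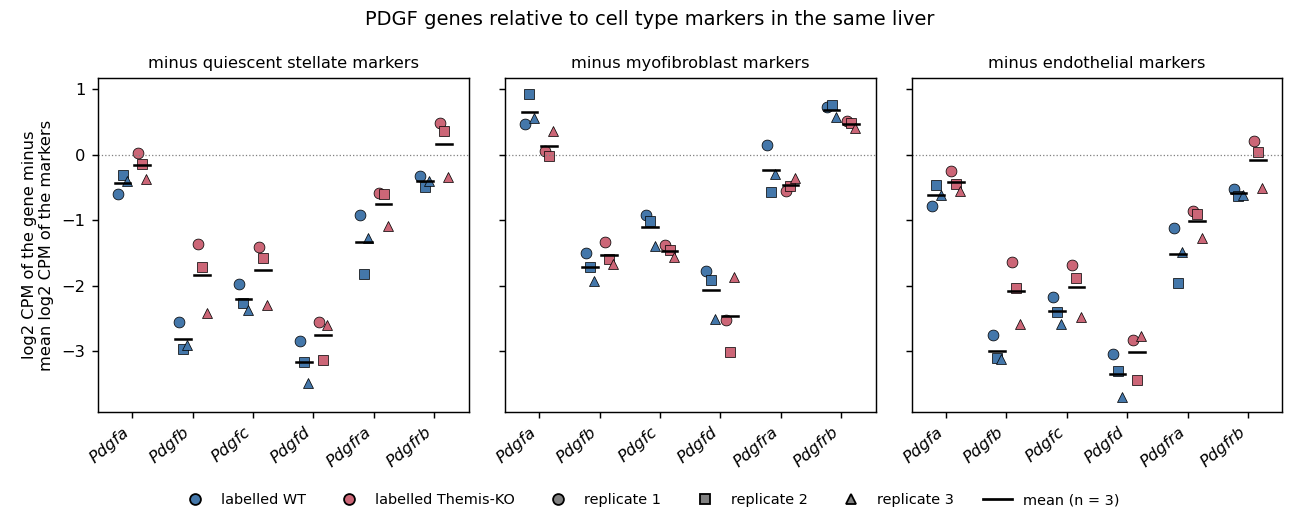
Log2 CPM of each PDGF gene minus the mean log2 CPM of the quiescent stellate (left), myofibroblast (middle) and endothelial (right) markers of the same liver, with blue points for livers labelled WT, red for those labelled *Themis*-KO, a shape per replicate and a line at the mean of 3. *Pdgfb* is higher by 0.98 and 0.91 against the stellate and endothelial markers without overlap, and *Pdgfrb* and *Pdgfa* lie lower against the myofibroblast markers.

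The genes with the pattern most like each member over the 6 livers were named by Pearson r of log2 CPM, among some 10165 genes with a mean of at least 5 CPM. For *Pdgfb* these were *Elf1* (r = 0.999), *Mcam* (0.997) and *Src* (0.995), and for *Pdgfrb* they were *Hspbap1*, *Vps37c* and *Ckap4* (0.998, 0.998 and 0.997). For *Pdgfc* they were *Prrc2a*, *Col4a2* and *Tjap1* (0.995 to 0.991), for *Pdgfa* *Galns*, *Lmo4* and *Myo9b* (all 0.994), for *Pdgfra* *Tnfrsf1b*, *Dgcr8* and *Mxra7* (0.994 to 0.990) and for *Pdgfd* *Adamtsl2*, *Pbxip1* and *Lama4* (0.993 to 0.977). With 6 livers that share libraries and the genotype difference such r are common: 1151 genes reached 0.9 with *Pdgfrb*, 805 with *Pdgfb* and 25 with *Pdgfd*.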

How the data were processed

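Poly(A) RNA of 6 livers was sequenced as paired-end reads of 151 bp. Per the submitters' processing notes and the study's methods, reads were trimmed with cutadapt 2.3, mapped to GRCm38 with STAR 2.7.8a and assigned to genes with RSEM 1.3.3. The authors deposited these estimated counts without normalization, as whole numbers, 1 value per gene and liver. RSEM divides reads that fit several genes among them. The annotation release is not given in the sources used here. Of the 25403 genes, 25353 were found in GENCODE vM21, which gave coordinates and exon lengths.

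Genotypes were compared with edgeR 4.0.16, and with limma 3.58.1 (voom) and DESeq2 1.42.0, under R 4.3.3. The main fit took all 6 livers and no covariate, with filterByExpr, TMM scaling, glmQLFit, glmQLFTest and Benjamini-Hochberg adjustment over 14496 genes and a threshold of 0.05. The F statistic of a fold change gave its standard error. Ratios used log2 CPM with a prior count of 2 and exact two-sided permutation tests. Alternatives were RLE, upper quartile and total-count scaling, no filter, at least 10 counts in every liver, DESeq2, voom, the replicate number as a block, the mitochondrial type as a covariate and each liver left out. Leaving out both *Gm28438*-type livers was chosen after seeing the data.

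The members and lists were chosen with earlier results of these data known. Named genes are the members, *Themis*, *mt-Nd3*, *Gm28438*, up to 4 called genes with the largest change and the most abundant gene of each list, and the 3 genes most like each member. *Kit* and *Csf1r* as neighbours, and any gene outside this rule, were chosen after their values were seen. The labels do not say what a replicate is beyond 1 liver, so p-values measure the spread between these livers. No libraries agreed within sampling noise. Fits were tested on simulated data. Figures were drawn with matplotlib 3.10.9. *Pdgfb* had no window in the promoter table, and *Pdgfrb* was not looked up in it. The windows of *Pdgfa* and *Pdgfra* lay within annotated gene spans and are not printed.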

Additional observations from a re-analysis of the deposited data

How the results depend on the processing

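The 6 members kept their positive sign in all 96 alternative values, and 72 of the 96 kept their side of the threshold. *Pdgfa* (0.45 with DESeq2, 0.60 with total counts alone), *Pdgfra* (0.73 with DESeq2, 0.72 without a filter, 0.88 with total counts alone) and, without *Themis*-KO replicate 3, these and *Pdgfc* (0.51, 0.84 and 0.85) passed only under these alternatives. *Pdgfb* lost its call, at 1.28 with both *Gm28438*-type livers left out and 1.30 with the mitochondrial covariate, and *Pdgfrb* at 0.73 and 0.75. The cause of these changes was not tested. With each liver left out, log2 fold changes ran from 0.37 to 0.52 for *Pdgfa*, 0.98 to 1.43 for *Pdgfb*, 0.50 to 0.85 for *Pdgfc*, 0.49 to 0.81 for *Pdgfd*, 0.53 to 0.94 for *Pdgfra* and 0.65 to 0.97 for *Pdgfrb*. 

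Members called numbered 2 in the main edgeR fit, 4 with DESeq2 or total counts alone, 3 without a filter, 0 with the mitochondrial covariate or both *Gm28438*-type livers left out, and 0 to 5 with 1 liver left out. All genes called higher and lower numbered 721 and 600 in the main fit, 1207 and 1072 with DESeq2, 1449 and 387 with total counts alone, 1212 and 967 without a filter, 0 and 3 with the covariate, 0 and 9 with both livers left out, and 8 to 2228 and 12 to 2039 with 1 liver left out. Of the 57 other pathway genes, 7 were called in the main fit, 12 with DESeq2 or total counts, 11 without a filter, 0 with the covariate or both livers left out, and 0 to 27 with 1 liver left out. Of 272 counts over 17 lists, 128 moved by more than 1.5 times.

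Same-numbered livers did not deviate together (r = 0.000277, −0.241 and −0.157), so the replicate numbers were not taken to pair them. The study describes the livers as pairs, and no source used here says what makes a pair. With the replicate number as a block, *Pdgfb* was 1.20 (adjusted p = 0.0822) and *Pdgfrb* 0.77 (0.0968), so that neither call held and 0 members passed in edgeR, 5 had an unadjusted p under 0.05 (as 23.8% of all genes did), and 17 genes were called higher, 45 lower and 0 of the pathway genes.

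Of 197 alternative values of the 23 ratios and shares, 8 changed sign, from main differences of 0.0021, 0.467 and 0.279. The *Pdgfra* to *Pdgfrb* ratio ran from −0.20 to 0.17, with −0.20 without WT replicate 2 and −0.08 without *Themis*-KO replicate 3. The share of *Pdgfc* ran from −0.27 to 1.64 percentage points, reversed at −0.0514, −0.0834 and −0.269, and that of *Pdgfd* from −1.31 to 1.61, reversed at −0.00601, −0.688 and −1.31. Depth limits *Pdgfd* most, at 38 to 75 counts, where counting alone gives a coefficient of variation of 16.2% to 11.5%.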

Other observations

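The relatives of the PDGF genes were described by a list of 15 vascular endothelial growth factor (VEGF) genes, class III receptor genes and their ligands, of which 14 were tested. Their median log2 fold change was 0.43, and 1 was called, against 9.11% of all genes in either direction. This was *Il34*, a ligand of the CSF1 receptor, which went from 2.43, 2.16 and 2.25 CPM in the livers labelled WT to 4.72, 4.22 and 4.25 CPM in those labelled *Themis*-KO (log2 fold change 0.95, SE 0.16, edgeR adjusted p = 0.0237). Every liver of the latter lay above every liver of the former, and the spread within each label was small.

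*Vegfa*, the most abundant gene of the list, was at 212, 195 and 196 CPM and at 170, 143 and 174 CPM, lower in each liver labelled *Themis*-KO, but did not pass (log2 fold change −0.31, SE 0.10, edgeR adjusted p = 0.0850). The gene neighbours of the PDGF receptors gave unlike values. *Csf1r*, beyond *Pdgfrb*, was at 41.0, 45.0 and 70.6 CPM and at 75.6, 91.1 and 75.6 CPM, with no overlap (log2 fold change 0.63, edgeR adjusted p = 0.0847). *Kit*, beyond *Pdgfra*, was at 5.73, 5.71 and 6.12 CPM and at 5.95, 6.92 and 4.86 CPM, with overlap (0.015, edgeR adjusted p = 0.957). Whether neighbours and receptors differ in their change was not tested.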
